A study of Homo sapiens with 5 samples.

Results

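Stanniocalcin 2 (STC2), adrenomedullin 2 (ADM2), vascular endothelial growth factor A (VEGFA) and growth differentiation factor 15 (GDF15) are secreted proteins whose genes respond to cell stress. They were chosen from an RNA-seq comparison of HUDEP-2 cells because their RNA was lower in the group in which integrated stress response genes were lower. The 4 genes were matched by gene name, each has 1 row, and they are 4 of 11976 genes listed in the authors' deposited table. Since this same comparison chose them, their differences are given as a description with no test.

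The cells compared were 3 libraries labelled as ERF knockout (ERF KO) and 2 labelled as wild type (WT). All were made from total RNA of HUDEP-2, a line of immortalised red cell precursors that came from umbilical cord blood. ERF is a transcriptional repressor of the ETS family, and the series concerns γ-globin after its inactivation. The titles of the WT samples carry the unexplained letters SCR. Not given in the sources used here are the site of the ERF edit and whether the knockout is 1 clone or several. Separate cultures are not mentioned in the labels either. The authors' p-values then reflect only how far these libraries vary, and that variation may be technical.

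The table holds a comparison and 0 columns of values per library, so a level in each library, an SD and the depth cannot be given. Its name carries the word Pre, which no label explains, so the stage or subset of cells compared is not known. Its header does not say which genotype is on top of the ratio. The groups are therefore called the numerator group and the denominator group of the deposited fold change, and every sign is kept as deposited. Neither of the genes that bear on the labels settles the direction. ERF itself had a log2 fold change of -0.89 and HBG2, a γ-globin gene, of -1.88 per the authors' deposited table, so both were lower in the numerator group. If the knockout lowers ERF RNA, the numerator group is ERF KO. If, as the series title states, γ-globin is reactivated on loss of ERF, the numerator group is WT. These readings exclude each other, and RNA abundance does not measure ERF protein. HBG1, the near-identical copy of HBG2, was not analysed here.

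As background, the integrated stress response is set off when a cell phosphorylates the translation factor eIF2α, for instance when amino acids are short or the endoplasmic reticulum (ER) is overloaded. General translation then slows while the transcription factor ATF4 is made, and ATF4 with partners such as CHOP (DDIT3) and C/EBP proteins raises genes of amino acid supply together with some secreted signals. VEGFA is also raised by the hypoxia-inducible factors (HIF) at low oxygen, and GDF15 by p53. GDF15 is made by erythroblasts and is high in the serum of people with β-thalassemia.

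The sequences before the start of STC2, ADM2 and GDF15 are shown because the RNA of the 3 genes differed in the same direction. Each runs from 250 bases before to 50 bases after the RefSeq start, 5′ to 3′ on the strand of the gene, in build GRCh38.p14. VEGFA has no entry in the sequence table used. STC2 lies at chr5:173328365-173328664 on the minus strand, ADM2 at chr22:50481293-50481592 on the plus strand and GDF15 at chr19:18385908-18386207 on the plus strand. Capitals mark the CCAAT box (CCAAT, bound by NF-Y), the GC box (GGGCGG, bound by SP factors) and the TATA box (TATAAA), on either strand.
STC2: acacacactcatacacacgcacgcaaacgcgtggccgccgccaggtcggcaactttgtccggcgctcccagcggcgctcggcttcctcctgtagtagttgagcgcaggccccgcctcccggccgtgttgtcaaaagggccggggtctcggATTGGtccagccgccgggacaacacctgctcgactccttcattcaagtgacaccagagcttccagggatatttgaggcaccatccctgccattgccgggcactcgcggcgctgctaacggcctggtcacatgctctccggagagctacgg
ADM2: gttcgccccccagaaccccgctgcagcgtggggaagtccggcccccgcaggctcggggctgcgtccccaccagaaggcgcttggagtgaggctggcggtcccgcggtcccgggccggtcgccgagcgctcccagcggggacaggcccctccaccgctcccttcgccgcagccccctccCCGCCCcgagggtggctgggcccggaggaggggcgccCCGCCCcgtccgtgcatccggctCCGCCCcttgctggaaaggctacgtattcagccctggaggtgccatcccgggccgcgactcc
GDF15: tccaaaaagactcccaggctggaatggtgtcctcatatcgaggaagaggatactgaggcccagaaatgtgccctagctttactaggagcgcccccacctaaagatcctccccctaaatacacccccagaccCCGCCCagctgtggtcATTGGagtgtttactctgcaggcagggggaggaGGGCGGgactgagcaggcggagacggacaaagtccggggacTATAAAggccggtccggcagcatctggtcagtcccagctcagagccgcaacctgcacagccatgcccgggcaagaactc

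The 3 promoters differ in their core elements. GDF15 holds a TATA box at positions -29 to -24, counted from -1 just before the start, a motif found in 11.5% of 35116 promoters of this length, and STC2 and ADM2 hold none. A CCAAT box on the opposite strand lies at positions -100 to -96 of STC2 and -103 to -99 of GDF15, and 34.6% of all promoters hold one. GC boxes occur 3 times in ADM2 and 2 times in GDF15, against a share of 45.0% of all promoters with at least 1. ADM2 is the richest in G and C, at 76.7%, a value exceeded by 6.40% of promoters, while STC2 is at 64.0% and GDF15 at 59.3%.

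Motifs of the factors named above were searched on both strands. The composite element of ATF4 and C/EBP (TGATGNAA) is in none of the 3 windows and in 3.62% of all promoters. It is in 6 of 26 promoters found for the listed ATF4 targets. The cyclic AMP response element (TGACGTCA) and its shorter form TGACGT, which lies within it, are also in none of the 3, against 1.85% and 7.98% of all promoters. Of the cores of the hypoxia element, ACGTG is in none (21.4% of all promoters) and GCGTG is in STC2 and ADM2 (36.5%). The letters CCACG, the second part of the ER stress element, are in STC2 and ADM2 (38.1% of all promoters) and overlap GCGTG matches there. The ETS letters CCGGAA (17.2%) and the EGR letters GCGGGGGCG (5.07%) are in none of the 3. The shorter letters GGAA, which lie within CCGGAA, are in all 3 printed sequences, on either strand. Their share of all promoters was not counted. A match is a description of letters and no match says only that they are not in this window.

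For comparison, the composite element (in capitals, either strand) is shown with up to 16 bases on each side in 3 stress genes that hold it before their start. CHAC1 degrades glutathione, ASNS makes asparagine and ATF3 is a stress transcription factor. The stretches are from RefSeq GRCh38.p14, on the strand of the gene.
CHAC1: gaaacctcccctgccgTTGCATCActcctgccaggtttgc
ASNS: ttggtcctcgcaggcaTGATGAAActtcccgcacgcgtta
ATF3: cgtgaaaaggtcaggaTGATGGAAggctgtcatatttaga

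All 4 secreted factors were higher in the numerator group, and all 4 passed an adjusted p below 0.05 per the authors' deposited table, where 25.9% of all genes did so in this direction and 50.9% in either. Nothing is read from this count, because the comparison chose the members. Their sizes ran from a strong difference for STC2 to a small one for GDF15. In bulk RNA, fewer cells that make a transcript and less of it per cell cannot be told apart.

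STC2 (ENSG00000113739, chromosome 5) encodes a secreted glycoprotein that binds the protease PAPPA and blocks its release of insulin-like growth factors. Its log2 fold change was 4.95 per the authors' deposited table, the highest of all 11976 genes. The derived standard error was 0.21 and the 95% interval 4.49 to 5.41, which is a fold of 31.0 with an interval of 22.5 to 42.6. Its mean was 2.69 log2 CPM per the authors' deposited table. Its standard error was larger than that of 95.9% of genes.

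ADM2 (ENSG00000128165, chromosome 22), also called intermedin, encodes a peptide of the calcitonin family that widens blood vessels and acts on the receptor CALCRL paired with RAMP proteins. It ranked 10 of all genes, with a log2 fold change of 3.21 per the authors' deposited table. With a standard error of 0.11 the interval was 2.96 to 3.45, a 9.24-fold difference. Its mean was 3.04 log2 CPM per the authors' deposited table.

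VEGFA (ENSG00000112715, chromosome 6) encodes the main growth factor of blood vessels, which acts on the receptors FLT1 and KDR. It had by far the most reads of the 4, with a mean of 7.61 log2 CPM per the authors' deposited table. Its log2 fold change of 1.83 per the authors' deposited table ranked 43, and the standard error of 0.05 gave an interval of 1.72 to 1.94. The fold was 3.55, with an interval of 3.28 to 3.83. Counts per gene do not separate the many VEGFA isoforms.

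GDF15 (ENSG00000130513, chromosome 19) encodes a distant member of the TGF-β superfamily that lowers food intake through the hindbrain receptor GFRAL. It had the smallest difference, a log2 fold change of 0.77 per the authors' deposited table, rank 506. The standard error was 0.12 and the interval 0.52 to 1.03, a fold of 1.71 with an interval of 1.43 to 2.04. Its mean of 3.23 log2 CPM per the authors' deposited table was near those of STC2 and ADM2, so 3 genes with a like share of the reads spanned the whole range of differences. Neighbours in the order STC2, ADM2, VEGFA, GDF15 stood apart by 1.75, 1.38 and 1.05 on the log2 scale. At least 2-fold differences with an adjusted p below 0.05 were found for 3 of the 4, all except GDF15, and for 2.26% of all genes in this direction, with 1.01% in the other.

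**Figure D1:**
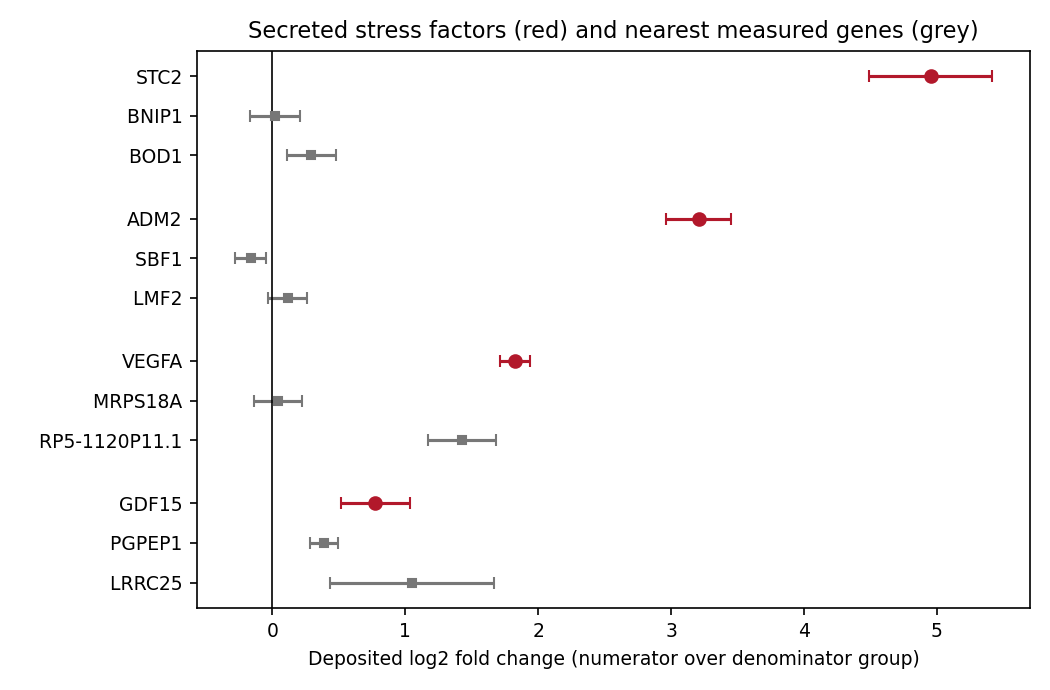
Deposited log2 fold change (x axis, numerator over denominator group) of the 4 secreted factors (red circles) and of the nearest measured gene on each side (grey squares), with derived 95% intervals. STC2 stands at 4.95 and GDF15 at 0.77, and the neighbours lie between -0.16 and 1.43.

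Mean levels were also compared per length, dividing CPM by the summed exon length of each gene in GENCODE release 29. VEGFA had 13.6 CPM per kb, GDF15 4.48, ADM2 1.92 and STC2 1.05. VEGFA thus had the highest level per kb of the 4 and STC2 the lowest, which 83.4% of genes with a length exceeded. The share of genes above ADM2 was 73.4%, above GDF15 54.1% and above VEGFA 22.5%. The length of VEGFA includes intron retained in some of its transcripts, so its value per kb may be understated.

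Levels in each genotype can be approximated from the mean and the fold change under each reading of the direction, taking the mean as the arithmetic mean CPM over 5 libraries of equal depth. If ERF KO is the numerator group, STC2 was at 10.5 CPM in ERF KO and 0.340 CPM in WT. If WT is the numerator group, STC2 was at 0.497 CPM in ERF KO and 15.4 CPM in WT. Under either reading STC2 was below 1 CPM in the lower group, so its fold depends on a low level there. For ADM2 the same calculation gave 12.8 CPM in ERF KO and 1.38 CPM in WT under the first reading, and 1.91 CPM in ERF KO and 17.6 CPM in WT under the second. For VEGFA it gave 275 CPM in ERF KO and 77.5 CPM in WT, or 97.1 CPM in ERF KO and 344 CPM in WT. GDF15 came to 11.2 CPM in ERF KO and 6.56 CPM in WT, or 7.29 CPM in ERF KO and 12.5 CPM in WT.

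**Figure D2:**
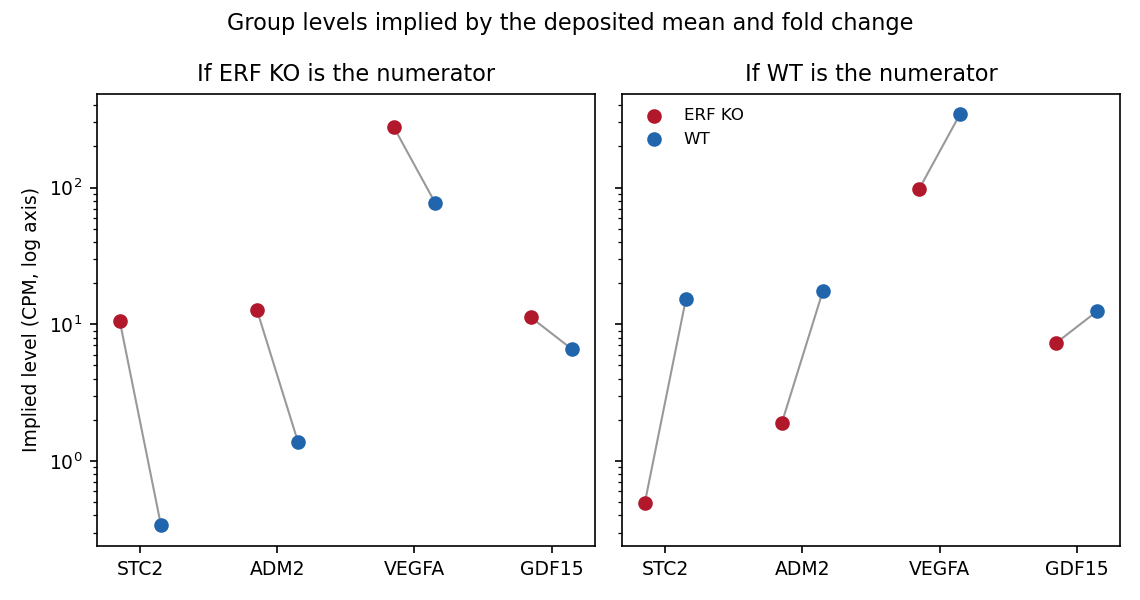
Approximate level in CPM (log axis) of each secreted factor in ERF KO (red, left) and WT (blue, right), under each reading of the deposited ratio. STC2 falls below 1 CPM in the lower genotype in both panels, whereas VEGFA stays above 77 CPM.

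Of the 8 nearest genes on the chromosome, 7 had a smaller log2 fold change than the member beside them. They were taken by position in GENCODE release 29 (GRCh38), after the members' values were known. Beside STC2, BNIP1 was at 0.02 (not past the threshold) and BOD1 at 0.29 per the authors' deposited table. Beside ADM2, SBF1 was at -0.16 and LMF2 at 0.12 (not past the threshold) per the authors' deposited table. For VEGFA, MRPS18A was at 0.04 (not past the threshold), while RP5-1120P11.1 on the other side was higher, at 1.43 and a mean of 1.65 log2 CPM per the authors' deposited table. Both neighbours of GDF15 were higher, PGPEP1 at 0.39 and LRRC25 at 1.05 per the authors' deposited table. LRRC25 had few reads, at 0.10 log2 CPM, and a standard error of 0.28. Annotated genes that overlap the members are an antisense RNA in VEGFA and the microRNA MIR3189 in GDF15, neither of which was analysed here; a strand setting for the counting is not stated in the labels.

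The genes nearest to each member in log2 fold change were taken among called genes within 1 log2 CPM of it. This likeness rests on the single comparison that chose the members, so nothing is read from which genes they are. For ADM2 they were CTH, an enzyme of cysteine synthesis, at 3.21 and ATF3 at 3.17 per the authors' deposited table. For VEGFA they were MTHFD2, a mitochondrial folate enzyme, at 1.71 and ASNS at 1.97 per the authors' deposited table. STC2 had no close match at its level: the nearest were ADM2 and ATF3, 1.75 and 1.78 lower on the log2 scale. GDF15 was matched by the ubiquitin ligase TRIM6 at 0.77 and by NMU, which encodes the secreted peptide neuromedin U, at 0.78 per the authors' deposited table.

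**Figure D3:**
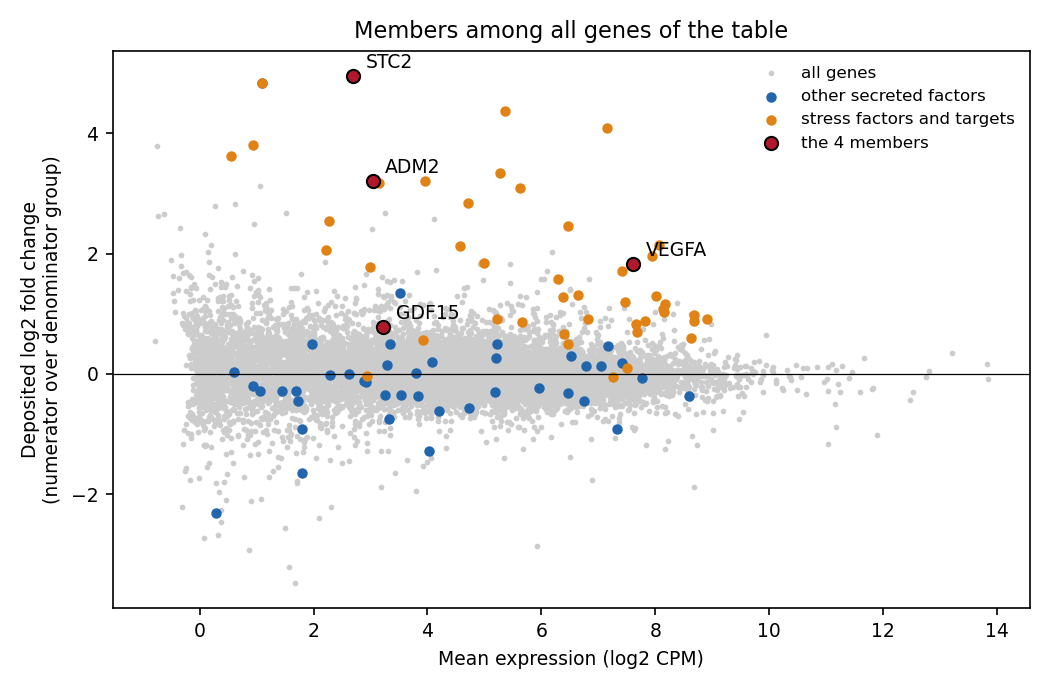
Deposited log2 fold change (y axis, numerator over denominator group) against mean log2 CPM (x axis) for all 11976 genes (grey), with the 4 secreted factors (red), stress factors and ATF4 targets (orange) and other secreted factors (blue). STC2 has the highest value of all genes at 2.69 log2 CPM, and 1 other secreted factor lies above VEGFA. This is INHBE, also an ATF4 target and so drawn in orange. The 4 were chosen on this comparison.

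The stress response genes, which the choice of the members used, are given for scale. Of 43 measured stress factors and ATF4 targets on 2 overlapping lists, 40 were higher and 0 lower in the numerator group. Of all genes, 25.9% were higher and 24.9% lower. The median of the 43 was 1.30, against 0.00 over all genes. VEGFA was exceeded by 17 of these 43 and GDF15 by 35. Among the transcription factors, ATF4 was at 0.88, its partner CEBPG at 1.58, CEBPB at 1.79 and DDIT3 at 2.07 per the authors' deposited table. ATF3 was at 3.17, the stress cofactor NUPR1 at 3.80 and ATF5 at 0.91 per the authors' deposited table. The pseudokinase TRIB3 was at 3.10 and NFE2L2, the factor of the antioxidant response, at 0.50 per the authors' deposited table. PPP1R15A, which directs a phosphatase to eIF2α, was at 0.09 and did not pass the threshold. Of 36 measured ATF4 targets, 34 were higher, led by INHBE (4.84), CHAC1 (4.38), DDIT4 (4.09) and ALDH1L2 (3.63) per the authors' deposited table. NUPR1 and ALDH1L2 had few reads, with means of 0.94 and 0.55 log2 CPM per the authors' deposited table.

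INHBE, the inhibin βE subunit, is itself a secreted ligand of the TGF-β superfamily to which GDF15 belongs. Its log2 fold change of 4.84 per the authors' deposited table, with a standard error of 0.20, was next to that of STC2. Its mean was 1.10 log2 CPM per the authors' deposited table. Of 6 measured ligands of this superfamily besides GDF15, 2 were higher, 3 lower and 1 without a call, with a median of -0.24. Over all genes 25.9% were higher and 24.9% lower. BMP8B was the other higher one, at 0.20 per the authors' deposited table. GDF11, which has been linked to late erythroid maturation in mice, was lower at -0.75 per the authors' deposited table. TGFB1 was lower at -0.44 and AMH at -0.36 per the authors' deposited table. TGFB3, at -0.12, did not pass the threshold.

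Of 10 listed close relatives of the other members, only 2 were measured, both of VEGFA, and neither was called. Over all genes, 5884 of 11976 were not called. VEGFB was at 0.16 (standard error 0.12) and PGF, which encodes placental growth factor, at -0.20 (standard error 0.17) per the authors' deposited table. The other 8 listed relatives, among them STC1 and ADM, were not analysed here, and neither were the 13 listed receptors and partners of the members, such as CALCRL, KDR, GFRAL and PAPPA.

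Of 7 listed factors in the control of iron by erythroblasts, 5 were not analysed here. The 2 measured, FAM132B and TWSG1, were higher in the numerator group, as were 25.9% of all genes. FAM132B, an older symbol of ERFE, encodes erythroferrone, the hormone that lowers hepcidin. It was at 0.47 (standard error 0.05) and a mean of 7.16 log2 CPM per the authors' deposited table. TWSG1, a BMP-binding protein, was at 0.50 (standard error 0.10) per the authors' deposited table. GDF15 has been named with these as an erythroid signal to hepcidin, and stood at 0.77 beside them.

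Other proteins listed as secreted were divided in direction. Of 31 measured growth factors, cytokines and matrix proteins on a general list, 7 were higher (25.9% of all genes), 14 lower (24.9% of all genes) and 10 not past the threshold, and the median was -0.28. The higher ones included the cytokine IL16 at 1.35, NRG4 at 0.50, the Notch ligand JAG1 at 0.50 and NAMPT at 0.31 per the authors' deposited table. The list is not strictly of secreted proteins. JAG1 is bound to the membrane, and TXLNA, among the lower ones, is mainly intracellular. Lower ones included the chemokine IL8 at -2.31, the extracellular chaperone CLU at -1.65, MANF at -1.28 and CYR61 at -0.92 per the authors' deposited table. IL8 had few reads, with a mean of 0.29 log2 CPM per the authors' deposited table, and a standard error of 0.27. Over all 41 other measured factors listed as secreted, 11 were higher and 17 lower, against 25.9% and 24.9% of all genes. Of these 41, 1 (INHBE) lay above VEGFA and 2 (INHBE and IL16) above GDF15. INHBE is also on the list of ATF4 targets. Nothing is read from these places, because the comparison chose the members. Secreted proteins on no list, such as NMU, are not in this count.

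**Figure D4:**
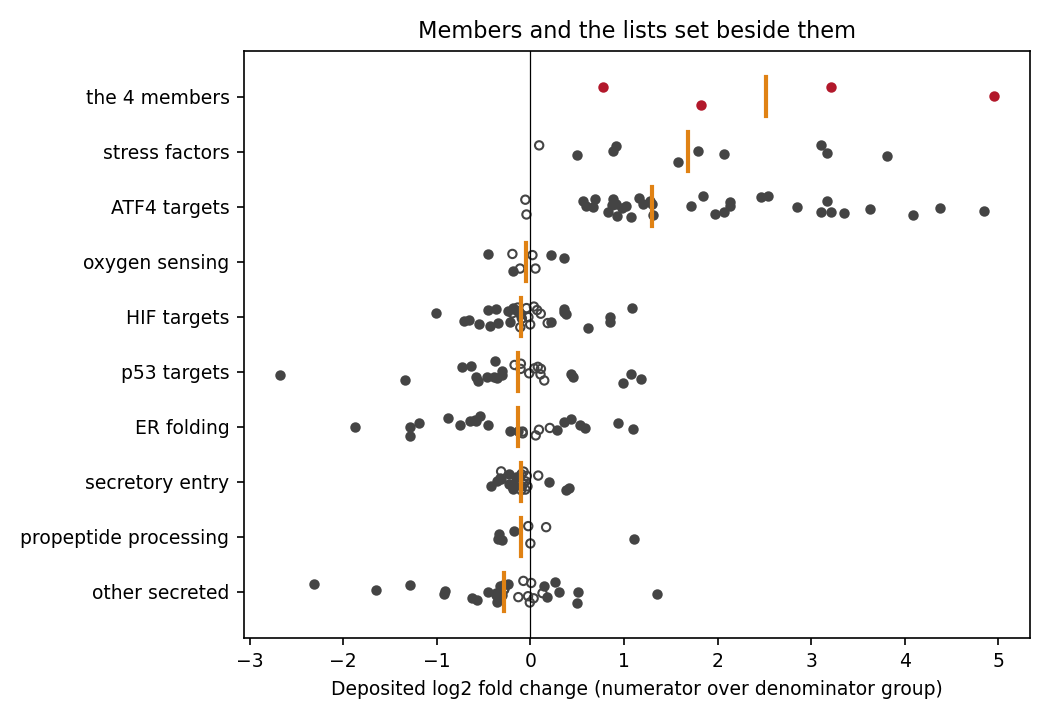
Deposited log2 fold change (x axis, numerator over denominator group) of each gene by list; filled points passed an adjusted p below 0.05, open points did not, orange bars are medians and vertical scatter within a list is random. The members and both stress lists lie mostly right of 0, with medians of 2.52, 1.68 and 1.30, and the other lists have medians between -0.28 and -0.04.

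VEGFA is a known HIF target, and other HIF targets are given beside it. Of 33 measured HIF target genes besides VEGFA, 8 were higher, 12 lower and 13 without a call, and their median was -0.10. The higher share was 24.2%, against 25.9% of all genes, and 24.9% of all genes were lower. Higher ones were the pyruvate dehydrogenase kinase PDK1 at 1.09 and the hexokinase HK2 at 0.61 per the authors' deposited table. NDRG1 and BHLHE40 were higher too, at 0.85 each per the authors' deposited table. Lower ones were the transferrin receptor TFRC at -1.01, the glucose transporter SLC2A3 at -0.71, PFKFB3 at -0.65 and JMJD6 at -0.55 per the authors' deposited table. All of these except TFRC and PDK1 differed by less than 2-fold. The lists overlap with others given below. TFRC is also listed as an erythroid marker, ERO1L under ER folding, and EGLN1 and EGLN3 under oxygen sensing.

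Among the genes of oxygen sensing, with the HIF subunits included, 2 of 8 were higher and 2 lower, against 25.9% and 24.9% of all genes. HIF1A was at -0.19 and EPAS1, which encodes HIF-2α, at -0.45 per the authors' deposited table, so the RNA of both α subunits was lower in the group where VEGFA was higher. The hydroxylases EGLN1 and EGLN2, which mark HIF for destruction, were higher at 0.35 and 0.22 per the authors' deposited table. VHL (0.05), ARNT (0.02), HIF1AN (-0.11) and EGLN3 (-0.19) did not pass the threshold. HIF is regulated mainly through protein stability, which RNA does not measure.

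For GDF15, the p53 target genes were set beside it. Of 26 measured, 5 were higher, 12 lower and 9 without a call, and their median was -0.14. The higher share was 19.2%, against 25.9% of all genes, and 24.9% of all genes were lower. The higher ones were led by the BH3-only genes PMAIP1 at 1.19 and BBC3 at 1.08, GADD45A at 0.99 and DDB2 at 0.46 per the authors' deposited table. PMAIP1, BBC3 and GADD45A are also known to respond to ATF4 or CHOP. In the opposite direction from GDF15 were CDKN1A at -2.68, PLK2 at -1.34, AEN at -0.73 and ZMAT3 at -0.63 per the authors' deposited table. CDKN1A and PLK2 had few reads, both below 1 log2 CPM.

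Secreted proteins fold in the ER with the help of its chaperones. Of 25 measured genes of ER folding and the unfolded protein response, 7 had higher RNA, 13 lower and 5 were without a call. Their median was -0.13. The higher share was 28.0%, against 25.9% of all genes, and 24.9% of all genes were lower. The lower ones were led by the chaperone HSPA5 at -1.87, SDF2L1 at -1.29, MANF at -1.28 and HSP90B1 at -1.19 per the authors' deposited table. HERPUD1 at 1.09 and EDEM1 at 0.53, which act in degradation, the transcription factor XBP1 at 0.93 and the oxidase ERO1LB at 0.58 were higher per the authors' deposited table. MANF is a secreted protein as well.

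The route into the secretory pathway showed small differences. Of 24 measured genes of signal recognition, translocation and signal peptide removal, 3 were higher, 10 lower and 11 without a call. Their median was -0.10. The higher share was 12.5%, against 25.9% of all genes, and 24.9% of all genes were lower. SEC61A2 at 0.42, SEC63 at 0.38 and SEC11A at 0.20 were higher per the authors' deposited table. SRPR at -0.42, SEC11C at -0.36, and SPCS3 and SEC61A1 at -0.32 each were the lowest per the authors' deposited table.

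The precursors of ADM2 and GDF15 are cut by proprotein convertases, and ADM2 is amidated by the enzyme PAM. FURIN, at -0.02, did not pass the threshold, and PAM was lower at -0.33 per the authors' deposited table. PCSK7 (-0.18), MBTPS1 (-0.30) and PCSK6 (-0.35) were lower per the authors' deposited table. PCSK4 was higher at 1.10 but had a mean of 0.92 log2 CPM per the authors' deposited table. The carboxypeptidases CPE (0.17) and CPD did not pass the threshold.

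The erythroid label was checked with its defining genes. All 11 listed erythroid markers were measured, with means between 6.90 log2 CPM for SLC4A1 and 12.48 log2 CPM for HBB, per the authors' deposited table. Of these, 0 were higher and 8 lower in the numerator group, against 25.9% and 24.9% of all genes. The median was -0.29, and SLC4A1 was the lowest at -1.77 per the authors' deposited table. The part of this shift in the members' differences was not tested. Of markers of other cells, 1 of 8 endothelial genes (ESAM, 0.30 log2 CPM), 1 of 9 monocyte and macrophage genes (LYZ, 0.48 log2 CPM) and 0 of 6 stromal genes had a row per the authors' deposited table.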

How the data were processed

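RNA of 5 HUDEP-2 samples (3 ERF KO, 2 WT) was sequenced. Trizol extraction and an Illumina TruSeq kit are named per the labels' protocols. Per the submitters' processing notes, the software was edgeR 2.6.12 and TopHat2 2.0.4 with HTSeq, SAMtools and Cuffdiff, on hg19/GRCh37, with no roles stated. How genes were filtered and normalized is not stated. Per the file headers, the authors' columns are the log2 fold change, the average log2 CPM, the F score and the raw and adjusted p-value of each gene. Of 11979 rows, 3 name no gene; they hold 21.5% of the CPM and were left out of all counts.

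A gene was called at a deposited adjusted p below 0.05. Standard errors were derived as the absolute log2 fold change over the square root of F. The 95% intervals used a t quantile at 10.3 degrees of freedom, recovered from the deposited F and p. Because fitted fold changes may be moderated, errors and intervals are approximate. No model was refitted. Members, lists and motifs were chosen with earlier results of these data known. Named are the members, all measured genes of the short lists, up to 4 called genes per direction of the long lists, and the 2 genes nearest to each member. Sequences are from RefSeq GRCh38.p14. Exon lengths from GENCODE release 29 were matched by identifier for 11712 genes. Python 3.11.15, scipy 1.17.1 and pandas 2.3.3 were used.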

Additional observations from a re-analysis of the deposited data

How the results depend on the processing

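Centring the fold changes on the median over all genes (0.00) or over genes of at least 5 log2 CPM (-0.03), and a normal quantile for the intervals, moved no member by as much as its standard error. Adjusting p again over named genes kept both counts of called genes within 1.5 times, and taking only the 250 bases before the start moved no motif count. Requiring at least 2-fold left 271 higher and 121 lower genes in the whole table. Under the same requirement there remained 1 higher and 0 lower TGF-β ligands, 0 and 0 oxygen sensing genes, 1 and 1 HIF targets, 2 and 2 p53 targets, 1 and 4 ER folding genes, 0 and 0 secretory entry genes, 0 lower processing genes, and 1 and 3 other secreted factors. At an adjusted p below 0.01, 1 TGF-β ligand was higher, and 1 oxygen sensing gene was higher and 1 lower. With a minimum of 1 log2 CPM, 0 processing genes were higher, since PCSK4 lies below it. The counts of stress factors and ATF4 targets stayed within 1.5 times under every alternative run. Requiring at least 2-fold lowered them most, from 9 to 6 higher stress factors and from 34 to 24 higher ATF4 targets. No paired analysis was possible because the table has no values per library, and for the same reason no replicate could be left out. The low level of STC2 in the lower group limits the precision of its fold, and the depth is unknown.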
